A study of Rattus norvegicus with 2 samples.

Results

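The 9 genes described here (Vil1, Espn, Pls1, Eps8, Ezr, Myo1a, Cdhr2, Cdhr5 and Ush1c) encode structural proteins of the intestinal microvillus. They were taken by their symbols from the 32883 genes listed in the files, and each symbol matched 1 row in both libraries. Expression was measured by droplet-based sequencing of single cells in proximal jejunum epithelium from 2 male Sprague-Dawley rats, an outbred laboratory strain. Both animals were 6 to 8 weeks old, weighed 180 to 200 g and were untreated apart from an overnight fast, and their epithelium was released with EDTA and dispase. Each rat gave 1 library, so n = 2 throughout, and cell classes were compared within the same pair of animals.

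A microvillus is a finger-like protrusion of the apical membrane around a core of parallel actin filaments, and the packed array of microvilli on an enterocyte is the brush border, where nutrients are digested and absorbed. Villin (Vil1), espin (Espn) and fimbrin (Pls1, also called plastin 1) bundle the actin filaments, and Eps8 caps and bundles them at the tips. Ezrin (Ezr) and myosin-1a (Myo1a) link the core to the membrane. The protocadherins Cdhr2 and Cdhr5 form the adhesive links between neighbouring microvilli, and the scaffold harmonin (Ush1c) anchors them inside the tip.

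The libraries held 99986348 unique transcript counts (UMIs) over 12033 barcodes in rat 1 and 66469907 over 8252 in rat 2, of which 5988 and 2230 barcodes passed the filters on UMIs, genes and mitochondrial transcripts. The rats shared 28 barcode sequences in all and 4 among these cells. After removal of clusters with leukocyte or erythroid transcripts, 7360 epithelial cells remained and 6864 were placed in 10 classes. The clusters removed for leukocyte transcripts (183 and 298 barcodes) also held enterocyte transcripts. The members stood there at 77.0 to 93.8% of their enterocyte level in rat 1 and at 39.8 to 78.3% in rat 2. Classes were named from their markers, so the marker levels given here describe the classes and do not test the names. The summed tuft markers reached 891 and 3322 CPM (UMIs per 1000000 UMIs of a class) in the tuft class of rats 1 and 2, and at most 29.6 and 265 in any other class, although Il25 was at 0 in the tuft class of rat 1. The markers of CFTR high expresser cells (CHEs) reached 2429 and 3507 against at most 82.0 and 149 elsewhere, with Car7 at 0 in rat 1. The goblet and endocrine classes also exceeded every other class on their own markers, though Neurog3 and Pcsk1n were at 0 in the endocrine class of both rats. Class sizes were uneven. The crypt class held 946 and 29 cells, the tuft class 23 and 119, the CHE class 7 and 72, the goblet class 50 and 102 and the endocrine class 21 and 11. Clustered without integration of the rats, the tuft class of rat 1 held 5 cells and its goblet class 19, so membership of these classes in rat 1 depends on the clustering.

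Free RNA in the droplets was gauged in hemoglobin-rich barcodes that had been removed, since red blood cells lack microvilli. In these 28 and 249 barcodes, the members stood at 0 to 4.57% of their enterocyte level in rat 1 and at 1.37 to 3.45% in rat 2. All levels are in CPM, with rat 1 given first. Fold changes and adjusted p-values come from edgeR on sums per class and rat, scaled by TMM, a normalization that centres on the bulk of the genes. The scale changed the values: without TMM, the median of all 9267 genes tested moved from -0.07 to -1.27 (log2) between mature enterocytes and the crypt class and from 0 to 0.89 between tuft cells and enterocytes.

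**Figure D1:**
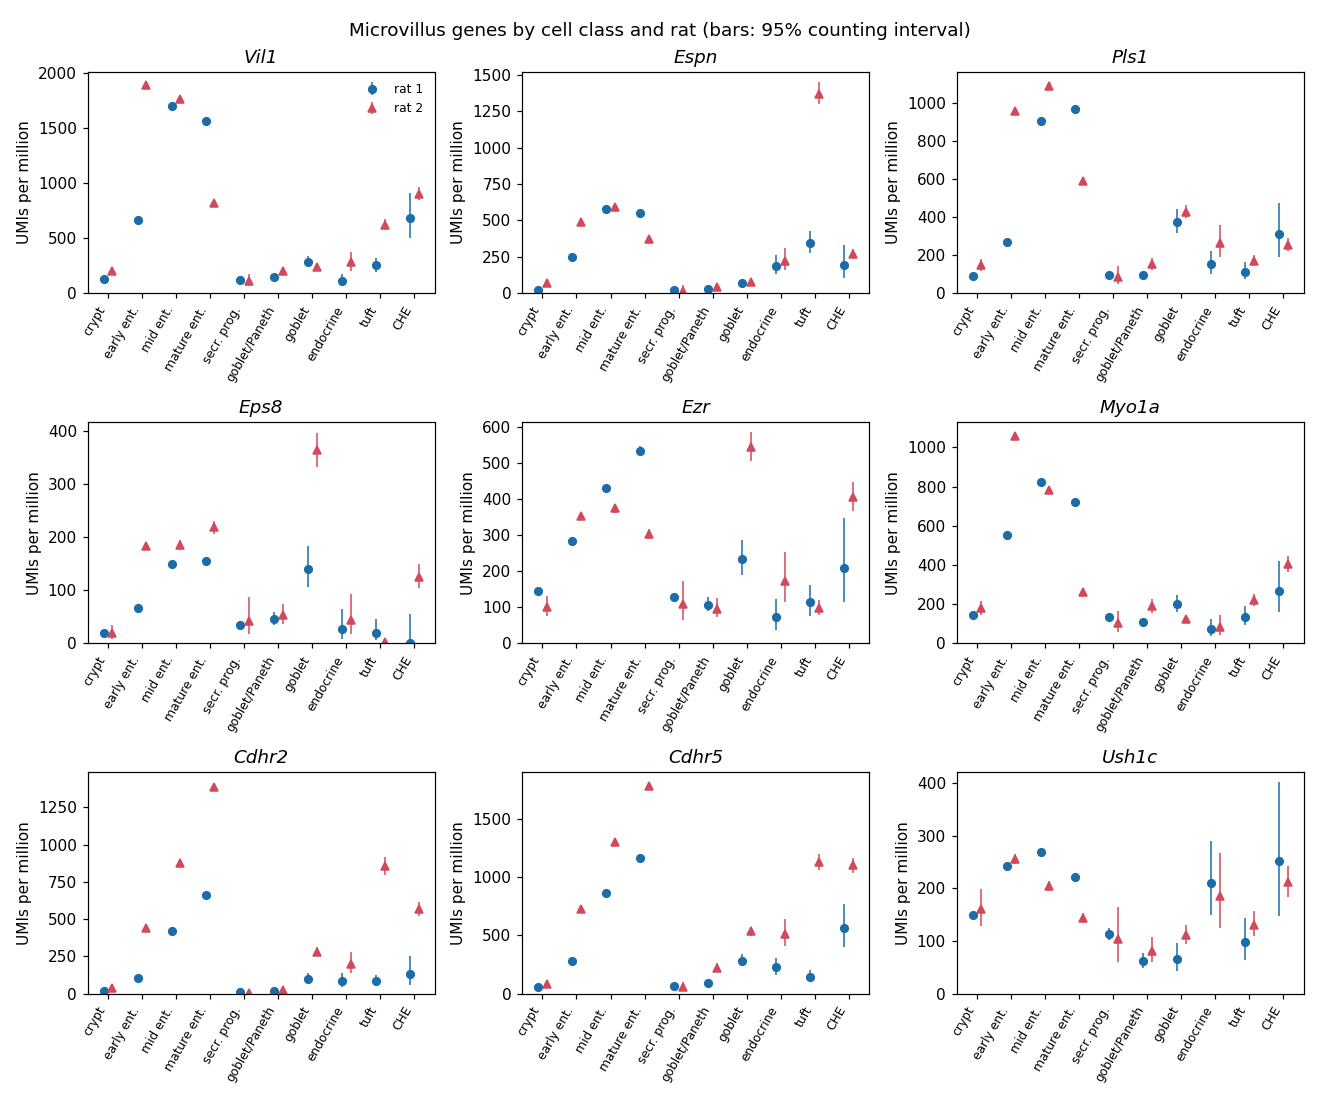
Level of each member (CPM, linear axis from 0) in 10 cell classes, with circles for rat 1, triangles for rat 2 and bars for the exact 95% Poisson interval of the count. An enterocyte class has the highest mean level for 7 of the 9 members, Espn peaks in tuft cells of rat 2 at 1372, and Eps8 there is at 2.12.

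All 9 members rose between the crypt class and mature enterocytes (the highest tertile of enterocytes by a villus program score within each rat). Log2 fold changes ran from 1.46 (Ush1c) to 6.71 (Cdhr2), with a median of 4.11 against -0.07 over all genes tested. Across the whole table, 21.0% of genes were called higher and 23.6% lower. With library sizes alone, the split over all genes shifted from 1946 higher and 2186 lower to 860 and 3858, and 8 of the 9 members stayed called, the exception being Ush1c.

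The bundlers formed the first group. Vil1 stood at 126 and 199 in the crypt class, 666 and 1895 in early enterocytes, 1699.8 and 1767 in mid enterocytes, and 1567 and 822 in mature enterocytes. The crypt values lay below all 6 enterocyte values, and the rats went opposite ways between the early and the mature tertile. The rise from crypt to mature enterocytes was 4.11 on the log2 scale (SE 0.71, adjusted p = 0.00083).

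Espn was at 21.9 and 71.3 in the crypt class and at 549.8 and 371 in mature enterocytes, a log2 fold change of 4.65 (SE 0.75, adjusted p = 0.00061). Pls1 was at 89.7 and 146 in the crypt class and at 970.3 and 590.0 in mature enterocytes, a change of 3.98 (SE 0.65, adjusted p = 0.00063). For both genes the crypt values lay below every enterocyte value. A crypt cluster led by leukocyte genes (195 and 25 cells) was left out of the crypt class. Espn stood there at 26.9 and 302, and the value of rat 2 lay above the 252 of early enterocytes in rat 1. Eps8 was at 20.2 and 18.8 in the crypt class and reached 155 and 218 in mature enterocytes, a change of 4.51 (SE 1.01, adjusted p = 0.0032).

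The membrane linkers changed less. Ezr stood at 145 and 99.5 in the crypt class, so that the crypt already held 35.3% and 28.6% of the level over all enterocytes, and at 534 and 302 in mature enterocytes. Myo1a stood at 146 and 178 in the crypt class and at 722 and 263 in mature enterocytes. Crypt and mature values did not overlap for either gene, and the log2 fold changes were 2.94 for Ezr (SE 0.62, adjusted p = 0.0024) and 2.78 for Myo1a (SE 0.58, adjusted p = 0.0022).

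The adhesion protocadherins had the highest fitted changes of the 9. Cdhr2 was at 17.0 and 35.7 in the crypt class and at 662 and 1386 in mature enterocytes, and Cdhr5 at 55.0 and 86.3 against 1162 and 1780.4. Neither gene overlapped between the classes, and the log2 fold changes were 6.71 (SE 1.33, adjusted p = 0.0016) and 5.73 (SE 1.05, adjusted p = 0.0011). Over the 20 sums of class and rat, Cdhr2 and Cdhr5 had the closest pattern of any pair of members (Pearson r = 0.98 of log2 levels, a description, since sums of 1 rat share a library).

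The 250 bases before the RefSeq starts of Cdhr5 and Cdhr2 (GRCr8 assembly, both on the minus strand, written 5′ to 3′ on the strand of the gene) are shown. The Cdhr5 window is chr1:205811093-205811342 and the Cdhr2 window is chr17:9917699-9917948. Capitals mark CATAAA, letters of a CDX type site, in Cdhr5, and GTTAAT and CAAAGTC, letters of an HNF1 type and of an HNF4 type site, in Cdhr2.
Cdhr5: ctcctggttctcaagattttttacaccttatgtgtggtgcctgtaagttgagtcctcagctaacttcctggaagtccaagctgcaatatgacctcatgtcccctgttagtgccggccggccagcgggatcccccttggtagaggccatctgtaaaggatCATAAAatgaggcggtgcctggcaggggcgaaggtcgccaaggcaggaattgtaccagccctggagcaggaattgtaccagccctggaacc
Cdhr2: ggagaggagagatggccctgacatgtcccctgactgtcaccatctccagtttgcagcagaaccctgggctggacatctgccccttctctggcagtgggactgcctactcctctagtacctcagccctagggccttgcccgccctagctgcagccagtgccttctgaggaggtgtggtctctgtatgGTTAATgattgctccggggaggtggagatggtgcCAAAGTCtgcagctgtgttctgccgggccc

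The CATAAA letters begin 91 bases before the Cdhr5 start, and the Cdhr2 letters begin 64 and 30 bases before its start. On either strand, CATAAA was found in 11.4% of all 33469 windows of this length, GTTAAT in 6.45% and CAAAGTC in 3.95%, and each was found in 1 of the 8 members with a window. The GC box letters GGGCGG were found in 30.5% of all windows and in 5 of the 8 members (Cdhr2, Espn, Ezr, Ush1c and Vil1). They are not capitalised in the Cdhr2 window. No motif overlapped another in the 2 windows printed. These are matches of letters, with no measurement of binding behind them.

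Ush1c moved least. It stood at 149 and 161 in the crypt class, 242 and 255 in early, 269 and 205 in mid, and 222 and 144 in mature enterocytes. The mature value of rat 2 lay below both crypt values. The log2 fold change was 1.46 (SE 0.44, adjusted p = 0.0145) on the TMM scale and 0.24 (adjusted p = 0.65) with library sizes alone, the only alternative under which the call was lost. The scaffold's crypt level was 60.6% and 76.1% of that over all enterocytes, the highest share among the 9.

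Much of this rise lay between the crypt and early enterocytes, the lowest tertile by score. There, 7 of 9 members were called higher, against 5.41% of all genes called higher and 5.15% called lower (501 and 477 genes, and 274 and 620 with library sizes alone). Log2 fold changes of the 7 ran from 2.88 (Myo1a) to 4.07 (Cdhr2). Ezr (1.86, SE 0.60, adjusted p = 0.059) and Ush1c (1.19, SE 0.44, adjusted p = 0.092) did not pass. Of the 7, Cdhr2 lost its call in 6 of 14 alternatives, and Cdhr5 and Eps8 lost theirs in 5. Espn lost its call at 20% mitochondrial UMIs, where its change was 1.68 (adjusted p = 0.26) in place of 3.67. All 9 passed with the rat as a block (adjusted p = 0.020 for Ezr and 0.031 for Ush1c). The early tertiles were not at 1 stage, since the median score was 0.82 in rat 1 and 1.64 in rat 2. Taken singly, the rats gave log2 differences from the crypt class of 2.82 and 4.42 for Cdhr2, 1.78 and 3.52 for Pls1, and 3.69 and 3.58 for Espn. Rat 2 was the higher one for every member but Espn, and the part of the difference in stage was not tested.

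Between early and mature enterocytes no member was called, with 2.01% of all genes called higher and 1.19% lower. With library sizes alone the split was 169 genes higher and 948 lower in place of 186 and 110, and with DESeq2 it was 547 and 515. By edgeR, 2 of the 9 passed at an unadjusted p below 0.05, and DESeq2 called 0. The members with the highest fitted change were again Cdhr2 (2.64, SE 1.09, adjusted p = 0.14) and Cdhr5 (2.29, SE 0.90, adjusted p = 0.13), with values of 3.31 and 2.46 for Cdhr2 and of 2.74 and 2.11 for Cdhr5 in the rats taken singly. With the rat as a block both were called (adjusted p = 0.0033 and 0.0056), and no other member was, where 28.0% of all genes were called under the block. Myo1a went up by 1.06 in rat 1 and was at -1.19 in rat 2.

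Finer steps of maturity separated the members further. Enterocytes of each rat were ordered by score and cut into 6 bins, of 670 or 671 cells in rat 1 and 187 or 188 in rat 2. Bins of the same number were not at 1 stage in the rats. Their median scores were 0.55 and 1.38 in the first bin and 2.62 and 3.07 in the last. Cdhr2 and Cdhr5 went up at every 1 of the 5 steps in both rats. Cdhr2 went from 52.9 in the first bin to 744 in the last in rat 1, and from 339 to 1506 in rat 2. Cdhr5 went from 153 to 1223 and from 594 to 1829. Eps8 was also highest in the last bin of both rats, at 165 and 239.

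The other bundlers and the linker Myo1a peaked earlier. Vil1 was highest in bin 4 of rat 1 and bin 2 of rat 2, whose median scores were 2.06 and 1.87. Its last bin held 77.1% and 27.9% of that peak. Myo1a was highest in bin 4 and bin 1, and its last bin held 79.2% and 13.6%. Pls1 ended at 81.8% and 38.7% of its peak, Espn at 84.4% and 52.3%, and Ush1c at 75.0% and 47.5%. Ezr went up at every step in rat 1 but ended at 74.0% of its peak in rat 2.

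The last bins thus held the highest protocadherin levels together with levels of Vil1 and Myo1a below their peak, further below it in rat 2. The last bin of rat 2 also had the higher score, and the part of that difference was not tested. Mitochondrial transcripts moved with these bins, from a median of 22.7% to 27.3% of UMIs in rat 2 and from 12.9% to 11.5% in rat 1, and median UMIs per cell went from 29698 to 14280 in rat 2. Their part in the result was not tested. When levels were taken per 1000000 UMIs outside mitochondrial genes, the maturity list and the enterocyte markers (an alternative chosen after the bins were seen), Cdhr2 and Cdhr5 still went up at all 5 steps in both rats. Eps8 did so on that scale, but went up at 3 of 5 steps in rat 1 and 4 of 5 in rat 2 on the CPM scale. On that scale Vil1 ended at 80.9% and 33.0% of its peak, and Myo1a at 83.0% and 17.4%.

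**Figure D2:**
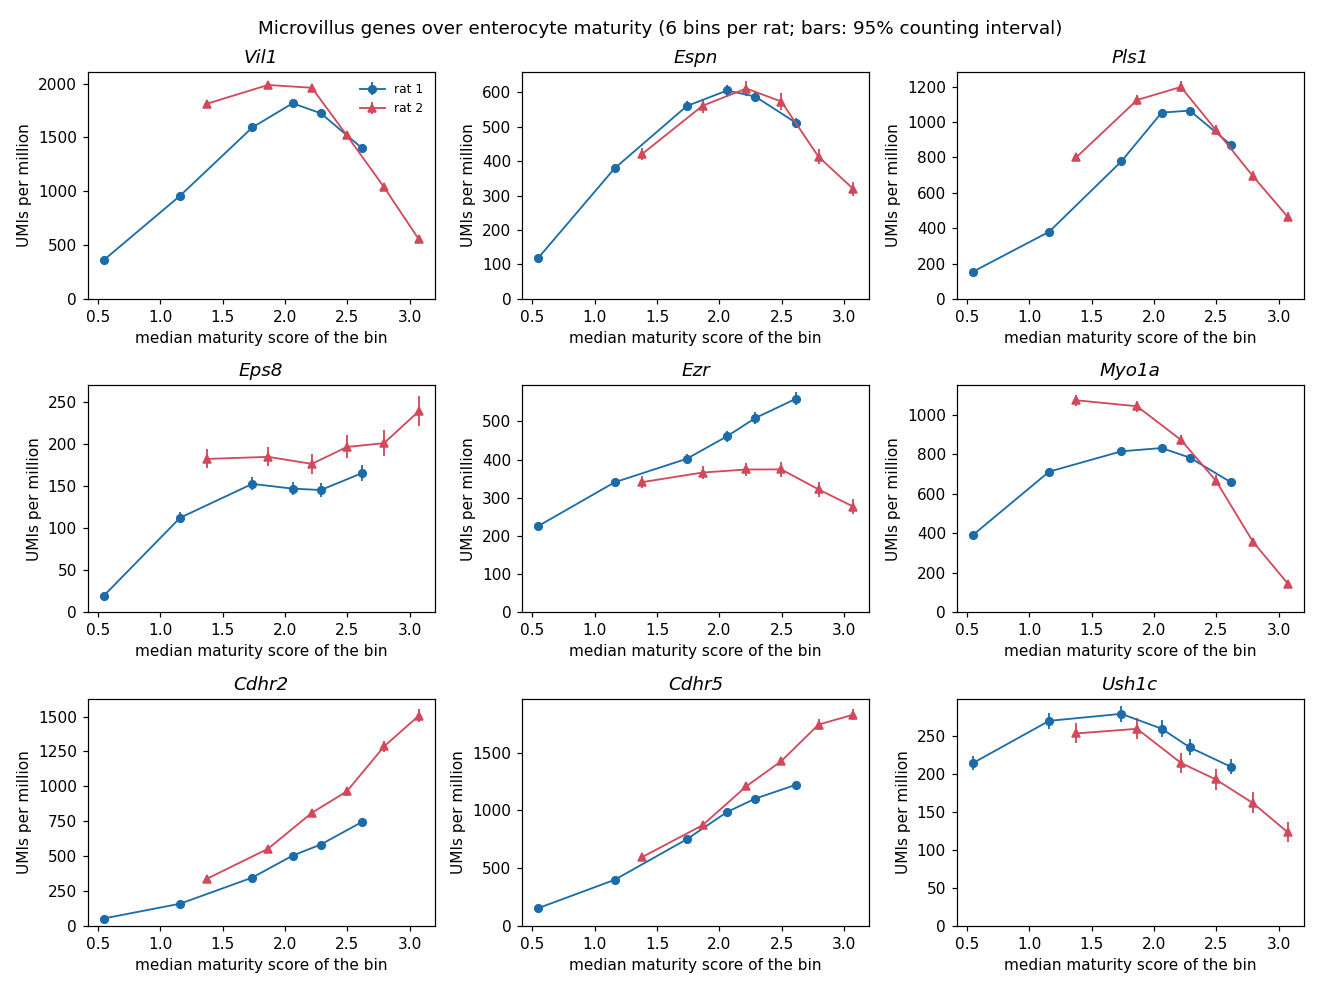
Level of each member (CPM, linear axis from 0) against the median maturity score of 6 bins of enterocytes per rat, with circles for rat 1, triangles for rat 2 and bars for the exact 95% Poisson interval. Cdhr2 and Cdhr5 go up at all 5 steps in both rats, whereas Myo1a in rat 2 goes from 1073 in the first bin to 146 in the last.

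Tuft cells, chemosensory cells with a tuft of long, thick microvilli, differed from enterocytes gene by gene. Of the 9 members, 6 were called lower than the mean of the 3 enterocyte classes and none higher, against 13.8% of all genes called lower and 15.3% higher (1281 and 1419 genes, and 660 and 3044 with library sizes alone). The fitted median of the members was -2.54 and that of all genes 0. In the fit with the rat as a block, 8 members were called lower, the added ones being Cdhr2 (adjusted p = 0.030) and Cdhr5 (adjusted p = 0.011). That fit called 42.1% of all genes in place of 29.1%.

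Eps8 was the lowest of the 9 relative to enterocytes. Tuft cells held 5 Eps8 UMIs in rat 1 and 2 in rat 2, a level of 19.5 (exact 95% Poisson interval 6.34 to 45.6) and 2.12 (0.256 to 7.65), which is 16.0% and 1.10% of the enterocyte level. In cells thinned to 5000 UMIs, 2 of 23 and 1 of 119 tuft cells had an Eps8 UMI (8.70% and 0.84%, or 17.4% and 1.68% unthinned). The share in rat 2 was not above the 2.01% of hemoglobin-rich barcodes there, whose median depth was 7362 UMIs against 7764 in tuft cells, so Eps8 was at background in the tuft cells of that rat. The log2 fold change was -5.29 (SE 1.10, adjusted p = 0.0023), with -3.38 in rat 1 and -7.17 in rat 2 taken singly.

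Espn did not differ from enterocytes beyond its error. It stood at 348 and 1372 in tuft cells, 76.3% and 276% of the enterocyte level, and all 119 tuft cells of rat 2 had an Espn UMI after thinning, against 15 of 23 in rat 1. Tuft cells of rat 2 held the highest Espn level of any class in either rat, whereas those of rat 1 lay below the mid and mature enterocytes of that rat. The fitted difference from enterocytes was 0.02 (SE 0.52, adjusted p = 0.997), with -1.17 in rat 1 and 0.54 in rat 2.

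Within the tuft class of rat 2, the 9 members therefore ranged from 1.10% (Eps8) to 276% (Espn) of their enterocyte level. Cdhr2 and Cdhr5 stood there at 105% and 96.4%, but at 21.3% and 19.3% in rat 1. These percentages are ratios of CPM to all enterocytes of the rat. On the TMM scale, against the mean of the 3 enterocyte classes, both genes were lower in each rat. The log2 differences were -2.77 in rat 1 and -0.91 in rat 2 for Cdhr2, and -3.03 and -1.06 for Cdhr5. The enterocyte markers Alpi, Apoa1, Apoa4, Fabp2 and Si stood at 1.38 to 4.63% in rat 1 and at 1.51 to 3.19% in rat 2, below every member but Eps8 of rat 2. A further enterocyte marker, Fabp1, stood at 18.9% and 139.9%. The rats' tuft classes differed in other ways as well. Summed cycling markers were at 766 CPM in rat 1 and 148 in rat 2, against 1213 and 1087 in the crypt class. Hemoglobin was at 6875 and 15543 in the tuft classes. The part of cycling markers and hemoglobin in the difference between the rats was not tested.

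Vil1 stood at 254 and 622 in tuft cells, Pls1 at 113 and 171, Ezr at 113 and 98.4, Myo1a at 137 and 219, and Ush1c at 97.7 and 131. Each of these lay below the enterocyte mean of its rat, with log2 fold changes of -2.54 (Vil1), -3.36 (Pls1), -2.74 (Ezr), -2.81 (Myo1a) and -1.83 (Ush1c). Ush1c lost its call with library sizes alone, where the adjusted p was 0.052.

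Against the mean of goblet and endocrine cells, 1 member was called higher in tuft cells and 1 lower, where 3.74% of all genes were called higher and 2.70% lower (347 and 250 genes, and 1168 and 178 with library sizes alone). These were Espn (2.18, SE 0.54, adjusted p = 0.027) and Eps8 (-4.31, SE 1.12, adjusted p = 0.033). The rats taken singly gave 0.88 and 2.77 for Espn and -2.35 and -6.19 for Eps8. Espn lost its call in 3 of 14 alternatives and Eps8 in 1. With the rat as a block 4 members were called, Pls1 (-1.67, adjusted p = 0.020) and Ezr (-1.70, adjusted p = 0.035) being the added ones. Under the block 13.9% of all genes were called, in place of 6.44%. The comparisons against enterocytes and against goblet and endocrine cells share the tuft sums.

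Goblet cells, the mucus-secreting cells of the epithelium, had fewer members called than tuft or endocrine cells, but the order against endocrine cells was not stable. Without TMM, with doublets removed and at resolution 1.0, goblet and endocrine cells had 4 each. With goblet and goblet/Paneth cells summed they had 5 and 4. Of the 9 members, 4 were called lower in goblet cells than in enterocytes and none higher, against 11.0% of all genes called lower and 9.69% higher. Espn fell the most, at 70.1 and 77.8, 15.4% and 15.7% of the enterocyte level (log2 fold change -2.53, SE 0.62, adjusted p = 0.0090). Vil1 (-2.30, adjusted p = 0.012), Myo1a (-1.99, adjusted p = 0.011) and Ush1c (-1.13, adjusted p = 0.0465) were also called, and the call of Ush1c, at -1.85 in rat 1 and -0.66 in rat 2, was lost in 6 of 14 alternatives. The 5 enterocyte markers other than Fabp1 stood at 1.78 to 9.45% of their enterocyte level in goblet cells of rat 1 and at 1.18 to 23.7% in rat 2, a range that holds Espn, Vil1 and Myo1a of rat 2.

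Eps8 and Ezr were the exceptions in goblet cells. Eps8 stood at 140 and 363, 115% and 189% of the enterocyte level, and Ezr at 233 and 544, 56.8% and 156%. Eps8 of rat 2 lay above every enterocyte value of either rat, and Ezr lay below the enterocyte level in rat 1 and above it in rat 2. Neither difference passed the test, at 0.84 for Eps8 (SE 0.68, adjusted p = 0.45) and 0.25 for Ezr (SE 0.47, adjusted p = 0.79). After thinning, 48.0% and 71.6% of goblet cells had an Eps8 UMI (54.0% and 90.2% unthinned). Pls1 was at 376 and 429, 53.5% and 46.8% of the enterocyte level, and did not pass (-0.85, SE 0.50, adjusted p = 0.26). Cdhr2 was added to the calls with the rat as a block (-1.48, adjusted p = 0.043), where 28.8% of all genes were called in place of 20.6%. Goblet/Paneth cells, a separate class with goblet and Paneth markers, did not share the high Eps8 and Ezr. Eps8 stood there at 45.0 and 53.1, 36.8% and 27.6% of the enterocyte level, and Ezr at 107 and 96.2, 26.1% and 27.6%.

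Endocrine cells, which release hormones in response to luminal nutrients, held 6 members called lower and none higher, against 10.9% of all genes called lower and 10.3% higher (1014 and 950 genes, 517 and 1342 with library sizes alone, and 742 and 1375 with DESeq2). Myo1a was at 72.2 and 83.4, 10.4% and 10.7% of the enterocyte level (log2 fold change -3.73, SE 0.59, adjusted p = 0.00030), and Vil1 at 111 and 282, 8.58% and 17.7% (-3.49, SE 0.65, adjusted p = 0.0013). Pls1 (-2.56), Ezr (-2.27), Eps8 (-2.79) and Espn (-1.79) also passed. Espn lost its call in 9 of 14 alternatives and Eps8 in 5. These sums are small, with 5 and 7 UMIs of Eps8 in 21 and 11 cells. The same 5 enterocyte markers stood there at 2.36 to 15.5% and at 1.17 to 17.1%, a range that holds Vil1 and Myo1a of rat 1 and Myo1a of rat 2, and their part in these levels was not tested.

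Ush1c was the member that endocrine cells kept most, at 211 and 186 CPM, 86.1% and 87.7% of the enterocyte level (-0.74, SE 0.38, adjusted p = 0.19). Cdhr2 (-2.74, SE 1.03, adjusted p = 0.070) and Cdhr5 (-2.04, SE 0.81, adjusted p = 0.086) did not pass either. Both were called with the rat as a block (adjusted p = 0.00345 and 0.00795), where 28.1% of all genes were called in place of 21.2%.

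CHEs, a villus cell type with high Cftr that also carries Best4 and Otop2, had 1 of the 9 members called against enterocytes. Pls1 was called lower and no member higher, against 6.16% of all genes called lower and 6.13% higher (571 and 568 genes, and 309 and 727 with library sizes alone). Pls1 stood at 311 and 255, 44.3% and 27.9% of the enterocyte level (-1.97, SE 0.54, adjusted p = 0.026), and lost its call with library sizes alone (adjusted p = 0.083). With the rat as a block 3 members were called, Espn (-1.48, adjusted p = 0.028) and Myo1a (-1.41, adjusted p = 0.030) being the added ones. The block also raised the share of all genes called, from 12.3% to 19.1%.

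Vil1 in CHEs stood at 681 and 905, 52.6% and 56.6% of the enterocyte level, and Ush1c at 252 and 212, 103% and 100.2%. Cdhr5 was at 563 and 1102, 75.2% and 93.9%, and Ezr at 207 and 405, 50.5% and 116%. None of these differences passed, and their fitted values lay between -1.23 (Vil1, SE 0.56) and -0.40 (Ush1c, SE 0.37). Espn stood at 193 and 266, 42.3% and 53.7% of the enterocyte level, Myo1a at 267 and 404, 38.2% and 52.1%, and Cdhr2 at 133 and 565, 34.7% and 69.4%. These did not pass either (-1.41, -1.40 and -1.04). The fitted values of all 9 members were negative, with a median of -1.23 against -0.22 over all genes. By edgeR 4 of the 9 passed at an unadjusted p below 0.05. Eps8 had 0 UMIs in the 7 CHEs of rat 1, which allows up to 44.4 CPM by 3 counts, and stood at 125 in rat 2, which lies above that limit. The 5 enterocyte markers other than Fabp1 stood at 2.63 to 10.0% of their enterocyte level in CHEs of rat 1 and at 1.13 to 2.74% in rat 2. Fabp1 stood there at 7.68% and 5.86%.

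Against the mean of goblet and endocrine cells, no member was called in CHEs, where 2.24% of all genes were called higher and 0.896% lower (208 and 83 genes, and 243 and 195 with DESeq2). By edgeR 2 members passed at an unadjusted p below 0.05, and DESeq2 called 0. Vil1 had the largest fitted difference (1.66, SE 0.53, adjusted p = 0.11), with 1.47 and 1.79 in the rats taken singly. It was the 1 member called with the rat as a block (adjusted p = 0.029), where 6.81% of all genes were called in place of 3.14%.

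**Figure D3:**
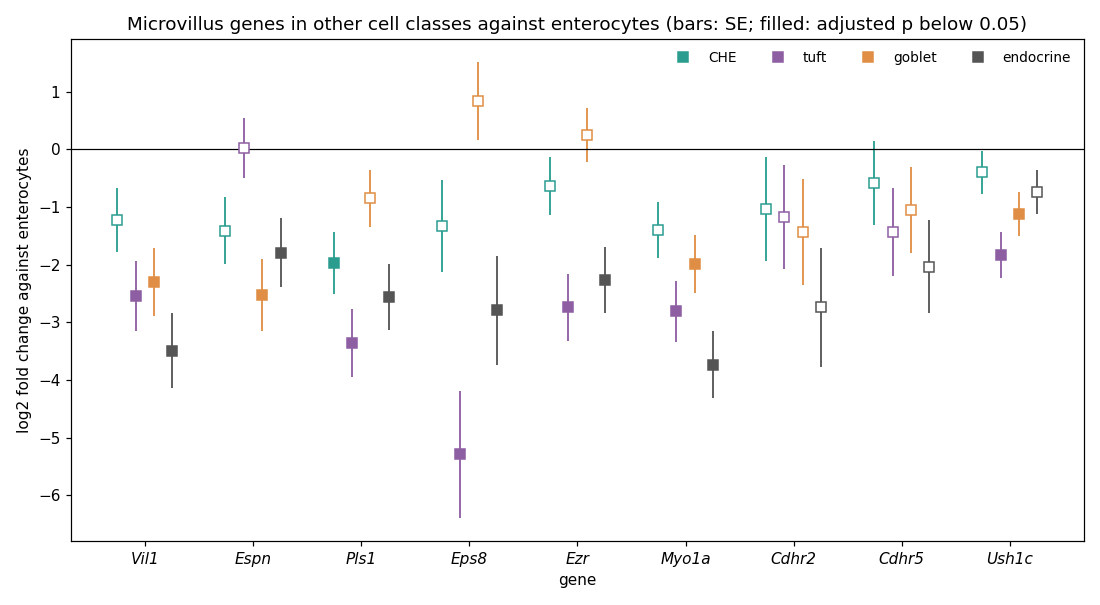
Log2 fold change of each member in CHE, tuft, goblet and endocrine cells against the mean of the 3 enterocyte classes (edgeR; bars show 1 SE; filled squares have an adjusted p below 0.05). Eps8 is at -5.29 in tuft cells and at 0.84 in goblet cells, and Espn in tuft cells is at 0.02.

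When the 10 classes were ordered by their mean level, enterocyte classes took the first place for 7 members, the exceptions being Espn (tuft) and Eps8 (goblet). The last place went to secretory progenitors for Vil1, Espn, Pls1, Cdhr2 and Cdhr5, to tuft cells for Eps8, to goblet/Paneth cells for Ezr and Ush1c, and to endocrine cells for Myo1a. The secretory progenitor class held 167 and 8 cells. Its sum in rat 2 had 18 Vil1, 3 Espn, 14 Pls1, 1 Cdhr2 and 9 Cdhr5 UMIs. Neighbours in these orders mostly overlapped between rats, in 6 to 8 of the 9 neighbouring pairs per gene. The values of CHEs lay wholly above those of the next class for Vil1, Ezr, Myo1a and Ush1c, and endocrine cells did so for Espn, Eps8, Cdhr2 and Cdhr5.

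The genes closest to each member over the 20 sums, outside the members and the wider lists, were named by Pearson r of log2 levels. They were Lpcat3 for Vil1 (r = 0.95), Xkr9 for Espn (0.94), Fabp2 for Pls1 (0.96), Tnfaip1 for Eps8 (0.95), Pak1 for Ezr (0.95), Maf for Myo1a (0.95), Ceacam1 for Cdhr2 (0.96), Cib1 for Cdhr5 (0.96) and Bsg for Ush1c (0.98). Fabp2 is also an enterocyte marker that helped to name the classes. Among the members themselves, Espn and Eps8 were the least alike (r = 0.27). These sums share 2 libraries and differ in depth, so the values are descriptions.

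The remaining brush border machinery was followed in a list of 32 genes, of which 31 were in the files and 27 passed the filter on low counts. From the crypt class to mature enterocytes 20 were called higher and 1 lower, against 21.0% and 23.6% of all genes. The median log2 fold change of the list was 2.50, and that of all genes -0.07. The largest changes among the genes called were in Pdzk1, a scaffold of apical transporters (6.88, adjusted p = 0.00084), Slc9a3r1, the ezrin-binding scaffold NHERF1 (5.26), and Cobl, the actin nucleator cordon-bleu (5.19). Krt20, an intermediate filament keratin that also served in the filter on epithelial cells, rose by 4.66. Prom1, a protein of membrane protrusions, was the 1 gene called lower and fell by 4.54.

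The partners of the adhesion complex also rose. The myosin motor Myo7b went up by 3.96 (adjusted p = 0.00058), the ankyrin repeat protein Anks4b by 3.02 (adjusted p = 0.00095) and the calmodulin-like light chain Calml4 by 2.50 (adjusted p = 0.0025). In tuft cells all 3 were called lower than in enterocytes, with log2 fold changes of -2.64 for Myo7b, -1.63 for Anks4b and -1.59 for Calml4. With library sizes alone, the calls of Anks4b (adjusted p = 0.18) and Calml4 (adjusted p = 0.23) in tuft cells and of Calml4 against the crypt class (adjusted p = 0.058) were lost. In tuft cells overall 2 genes of the list were called higher and 10 lower, in goblet cells 4 and 5, in endocrine cells 0 and 9, and in CHEs 2 and 2, each of 27 genes tested. Over all genes the shares called higher and lower were 15.3% and 13.8% in tuft cells, 9.69% and 11.0% in goblet cells, 10.3% and 10.9% in endocrine cells and 6.13% and 6.16% in CHEs, so that the counts in CHEs were near the overall share. No gene of the list was called between early and mature enterocytes. With the rat as a block 9 of 27 were, where 28.0% of all genes were called.

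In tuft cells the called genes with the largest fitted changes were Stk10, an ezrin kinase, and Whrn, a scaffold related to harmonin, both with 0 UMIs in the tuft class of both rats, then Pdzk1 (-6.30, 1 and 6 UMIs) and Krt20 (-5.52, adjusted p = 2.0e-05). In goblet cells they were Pdzk1 (-5.30), Cobl (-3.16), Myo7b (-2.49) and the apical syntaxin Stx3 (1.93, adjusted p = 0.020). Stx3 stood at 42.6 and 91.2 in goblet cells and at 11.4 to 33.4 in enterocytes, so the classes did not overlap. In endocrine cells Cobl had 0 UMIs in both rats, and the trafficking GTPase Rab8a (-3.01), the non-muscle myosin heavy chain Myh14 (-2.99) and Myo7b (-2.47) followed. In CHEs the called genes were Pdzk1 (-6.48, 1 and 2 UMIs), Cobl (-6.21, 0 and 1 UMIs), Prom1 (5.72, adjusted p = 0.00019) and the ezrin kinase Slk (1.85, adjusted p = 0.011).

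Tuft cells also held other members of the same protein families. Of 17 family genes, 8 passed the filter on low counts. In tuft cells 3 were called higher than in enterocytes, of which 2 are described, and 1 lower, against 15.3% and 13.8% of all genes. The same number, 3, was called higher in goblet cells, CHEs and endocrine cells, with 0, 0 and 2 lower. Over all genes 9.69%, 6.13% and 10.3% were called higher there. Avil, advillin of the villin family, stood at 402 and 2062 in tuft cells and at no more than 2.86 in any enterocyte class (log2 fold change 8.71, adjusted p = 0.00034), although the crypt class of rat 2 held 118 against 0.77 in rat 1. Rdx, radixin, which belongs with ezrin to the ERM family, had 3 and 68 UMIs in tuft cells and at most 5 in any enterocyte class (7.47, adjusted p = 0.00026). Msn, moesin, of the same family, did not pass the filter and stood at 3.91 and 1.06 in tuft cells.

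Goblet cells held other genes of these families. Gsn, the filament-severing protein gelsolin of the villin family, stood at 170 and 245 in goblet cells and at no more than 2.24 in enterocytes (8.22, adjusted p = 5.2e-07). Vill, villin-like, of the same family, stood at 10.0 and 72.7 (7.94, adjusted p = 8.0e-07), where 1 UMI equals 2.51 CPM in goblet cells of rat 1. Eps8l3, a relative of Eps8 that is listed under 2 identifiers and is given here for the one with more UMIs, stood at 302 and 521 in mature enterocytes, 38.7 and 78.8 in the crypt class, 100.2 and 158 in goblet cells and 50.8 and 334 in tuft cells. Eps8l3 rose from the crypt class to mature enterocytes (4.20, adjusted p = 0.0032). In CHEs Gsn (6.29, adjusted p = 1.6e-05) was called higher than in enterocytes, as was Vill (4.78, adjusted p = 0.0068), which had 0 UMIs in the CHEs of rat 1.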

How the data were processed

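Deposited values were raw UMI counts per gene and barcode, which the authors made with Cell Ranger against rn6 (3.1.0 for rat 1 and 5.0.1 for rat 2 per the file headers, so version and rat cannot be told apart). Barcodes with over 5000 UMIs, between 200 and 5800 genes and at most 40% mitochondrial UMIs were kept. Normalization, integration and clustering used Seurat (version 5.3.0, R version 4.3.3; 2000 variable genes without the members and lists, 20 components, resolution 0.3 and then 0.5). Clusters with a Ptprc UMI in over 25% of cells, or with high hemoglobin, were removed, and so were cells with at most 10 UMIs of epithelial genes. Clusters were named from markers by limits set after the clusters were seen, and 496 epithelial cells of mixed or doubtful clusters entered no comparison. Since the names were rebuilt, values may differ from those of the authors. Enterocytes were cut into tertiles of a villus program score within each rat, on cells thinned to 5000 UMIs, and 20.4% and 21.0% of them lay within 0.1 of a limit. Doublets stayed in. Scrublet (scanpy 1.11.5) called 1.94% of cells in rat 1 and 0.0897% in rat 2, where it had not worked.

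UMI counts were summed per class and rat (20 sums) and tested in 1 model with edgeR 4.0.16 (TMM, filterByExpr, quasi-likelihood test, Benjamini-Hochberg threshold 0.05), which all 9 members entered. SE was the absolute log2 fold change over the root of F. Log2 differences per rat used a prior count of 2. Classes of 1 rat come from the same animal, which pairs the sums. Differences between rats correlated between classes with a median of 0.22 over 45 pairs of classes (0.073 to 0.75), and the rat was a block in an alternative only. The script was tested on simulated data. Shares and bins carry no test. Intervals are exact Poisson or Clopper-Pearson intervals at 95% and, like the limit of 3 counts, cover counting error only. The members and gene lists were chosen with earlier results of these data known. The rule for named genes took all members, up to 4 called genes of the largest change per list and comparison, and fixed partners and relatives of the members. Not every gene it allows is described, and 1 is not reported here. Prom1 against the crypt class was named after its value was seen, as the only gene of its list called lower. Alternatives were the rat as a block, DESeq2 1.42.0, library sizes without TMM, no filter on low counts, no upper gene limit, 20% mitochondrial UMIs, no integration, resolution 1.0, doublets removed, pooled maturity limits, another maturity list, no mitochondrial genes and each rat left out. After seeing the data, 3 were added: a crypt cluster led by leukocyte genes kept, goblet and goblet/Paneth cells summed, and another denominator for the bins. Promoter windows came from RefSeq (GRCr8), which matched 8 of the 9 members (none for Eps8).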

Additional observations from a re-analysis of the deposited data

Results flagged for a closer look

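Barcodes above the mitochondrial limit entered no comparison, and they held member transcripts. In the 182 such barcodes of rat 1 with over 5000 UMIs, the 9 members summed to 5742 per 1000000 non-mitochondrial UMIs, and in the 1510 of rat 2 to 8905. The enterocytes kept in the comparisons held 5957 and 8735. No other result was marked, because groups of 2 rats are too small for a test of outlying samples.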

How the results depend on the processing

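Over 14 alternatives, the 35 called member changes kept their direction in all 490 values and lost the call in 45, and 37 of 644 values of the others became calls. Members called changed by over 1.5 times as follows. With the rat as a block there were 2 in place of 0 between early and mature enterocytes, 3 in place of 1 in CHEs against enterocytes, 4 in place of 2 in tuft against goblet and endocrine cells and 1 in place of 0 in CHEs against those cells. It also added Ezr and Ush1c in early enterocytes against the crypt class, Cdhr2 and Cdhr5 in tuft and endocrine cells and Cdhr2 in goblet cells, each against enterocytes. Early against crypt went from 7 to 4 with at most 20% mitochondrial UMIs, doublets removed, the leukocyte-led crypt cluster kept, or goblet classes summed. Early against mature went from 0 to 2 without a filter on low counts and to 1 without integration. CHEs against enterocytes went from 1 to 0 without TMM and to 2 with DESeq2, no integration, pooled maturity limits or the other maturity list. Goblet cells went from 4 to 2 at 20% mitochondrial UMIs. Tuft against goblet and endocrine cells went from 2 to 4 with DESeq2 and to 1 with no upper gene limit, 20% mitochondrial UMIs, the leukocyte-led cluster kept or goblet classes summed. The cause of these changes was not tested.

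Signs turned only among changes that were not called. Without TMM, Vil1 (-0.10) and Ush1c (-0.44) turned between early and mature enterocytes and Ush1c (0.057) in CHEs. Myo1a between early and mature enterocytes turned at 20% mitochondrial UMIs (0.023), pooled limits (0.16) and the other list (0.84). Espn in tuft cells against enterocytes turned with the block (-0.15), no filter (-0.15), no gene limit (-0.0084) and no mitochondrial genes (-0.018). Ezr in goblet cells turned without a filter (-0.023) and with goblet classes summed (-0.49). In tuft against goblet and endocrine cells, Myo1a turned with no gene limit (-0.0076) and doublets removed (-0.023) and Cdhr5 with the block (-0.16), and Pls1 in CHEs against those cells with goblet classes summed (0.011). With 1 rat left out no test remained, and signs differed between the rats. Between early and mature enterocytes the values ran from -0.39 to 1.92 for Vil1, -1.19 to 1.06 for Myo1a and -0.0097 to 0.56 for Ush1c. They ran from -1.17 to 0.54 for Espn in tuft cells and from -0.74 to 0.82 for Ezr in goblet cells. In tuft against goblet and endocrine cells they ran from -0.20 to 0.65 for Vil1, -0.52 to 0.49 for Myo1a, -0.86 to 1.25 for Cdhr2 and -1.52 to 0.51 for Cdhr5. Over all genes, calls between early and mature enterocytes moved from 296 to 2591 with the block, 1486 without a filter, 1385 without integration, 1158 with pooled limits, 1117 without TMM, 1062 with DESeq2, 608 at 20% mitochondrial UMIs, 196 with the leukocyte-led cluster kept, 141 with no gene limit, 132 with goblet classes summed and 1 with the other list. Early against crypt moved from 978 to 2313 with the block, 1720 without a filter (17178 genes tested in place of 9267, so 10.0% in place of 10.6%) and 1680 without integration. CHEs against enterocytes moved from 1139 to 1768 with the block and 1730 without a filter (10.1% in place of 12.3% of the genes tested). Tuft against goblet and endocrine cells moved from 597 to 1289 with the block, 1346 without TMM, 1116 without a filter and 380 with goblet classes summed, and CHEs against those cells from 291 to 631 with the block, 594 without a filter, 439 without integration and 438 with DESeq2. Of 180 shares of cells with a UMI, 132 left their interval when cells were not thinned. Small classes limit the precision, among them CHEs of rat 1, secretory progenitors of rat 2 and endocrine cells of both rats.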
